A study of Mus musculus with 15 samples.

Results

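The miR-17-92 cluster and its autosomal paralogs were examined in midbrain small RNA of A30P and wild-type mice. The arms were taken by name from the deposited table, as every listed arm of miR-17, miR-18a, miR-19a, miR-19b, miR-20a, miR-92a, miR-25, miR-93, miR-106b and miR-92b, which gave 9 of the 396 listed miRNAs. They were mmu-miR-17-5p, mmu-miR-20a-5p and mmu-miR-92a-3p of the Mir17hg transcript, mmu-miR-106b-5p, mmu-miR-106b-3p, mmu-miR-93-5p and mmu-miR-25-3p of the Mcm7-hosted cluster, and both arms of mmu-miR-92b, written below without the mmu prefix. Of the 10 names, 7 had a listed arm, and miR-18a, miR-19a and miR-19b were not among the miRNAs analysed here. The samples were midbrains of C57BL/6 mice aged 6 months, 7 with A30P alpha-synuclein, labelled +/+ (replicates 1, 2, 3, 4, 6, 7 and 8), and 8 wild type (WT, replicates 1 to 8). Alpha-synuclein is concentrated at presynaptic terminals, and its A30P variant occurs in familial Parkinson's disease. The labels name no promoter or locus for the A30P allele. Nothing in the labels ties each sample to its own animal, so the p-values reflect only the spread among these samples, which may be technical.

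The miR-17-92 cluster is transcribed as a single noncoding RNA from which several hairpins are cut, and it is known for promoting cell division and survival, including in neural progenitors. MYC and E2F factors induce it, and its well-known targets include the proapoptotic Bcl2l11 and the cell cycle inhibitor Cdkn1a. The paralogous miR-106b, miR-93 and miR-25 hairpins are made from the transcript of Mcm7, a subunit of the DNA replication licensing helicase, and miR-92b, from a hairpin of its own, is known in cortical progenitors as a repressor of Eomes. A miRNA finds its targets mainly through its seed, so arms with the same seed share many targets whichever cluster they come from.

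Mature sequences of all 9 arms were found in RefSeq (GRCm38.p6), and they fell into 2 seed groups and 2 arms outside them. They are shown because the arms that fell most had the first seed and because both arms of miR-106b moved in opposite directions. Capitals mark the seed, bases 2 to 8. The first group was made of 5p arms from both clusters.
miR-17-5p: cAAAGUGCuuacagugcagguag
miR-20a-5p: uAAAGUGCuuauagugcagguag
miR-93-5p: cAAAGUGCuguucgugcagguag
miR-106b-5p: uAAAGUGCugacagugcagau
The second group was made of 3p arms from all 3 loci.
miR-92a-3p: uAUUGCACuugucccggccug
miR-25-3p: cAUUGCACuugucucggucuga
miR-92b-3p: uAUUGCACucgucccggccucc
The other arms had seeds of their own.
miR-106b-3p: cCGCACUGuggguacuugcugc
miR-92b-5p: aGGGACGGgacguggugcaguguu

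Members of a seed group differ by few bases. Counted from 1 at the 5′ end, miR-20a-5p differed from miR-17-5p by C1U and C12U, and miR-92b-3p differed from miR-92a-3p by U10C and G21C over their 21 shared positions. The X-linked miR-106a-5p, which was not among the miRNAs analysed here, differs from miR-17-5p by U10A only. The sources used here do not say how reads matching more than a single miRNA were assigned, so the split between these arms is uncertain. The mature miR-92a-3p is also encoded identically by Mir92-1 on chromosome 14 and Mir92-2 on the X chromosome, and its reads cannot be assigned to either.

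Positions are in GRCm38, whereas the submitters' processing notes name mm9. Mir17 lies on chromosome 14 from 115043671 to 115043754 and Mir92-1 from 115044427 to 115044506, both on the plus strand. Each overlapped 1 exon of the long noncoding RNA Mir17hg as annotated in GENCODE vM21, which was used for all host genes. Mir106b lies on chromosome 5 from 138165737 to 138165818, Mir93 from 138165523 to 138165610 and Mir25 from 138165321 to 138165404, all on the minus strand within Mcm7. Mir106b overlapped no annotated Mcm7 exon, while Mir93 and Mir25 each overlapped 1 exon of an annotated Mcm7 transcript. Mir92b lies on chromosome 3 (minus strand, from 89227116 to 89227198) and no annotated gene hosts it on that strand.

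The A30P libraries held fewer reads of listed miRNAs, 21731 to 3500431 (median 92827), against 724813 to 9762286 in WT (median 5081436.5). The values are normalized counts, reads divided by the authors' size factor, so that 1 read stood for 0.0848 to 0.806 normalized counts in WT and for 0.174 to 56.4 in A30P. The share of reads from miR-148a-3p and miR-151-3p together was 13.9% to 80.1% in A30P and 0.842% to 2.51% in WT. A30P replicates 1, 2, 4 and 7 were under 100000 reads, and WT replicates 1 and 8 were the shallowest of their group, at 724813 and 1326236 reads. Column names carry different letters for the 2 genotypes. If the letter marks a run, run and genotype cannot be told apart.

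In WT midbrain the 3p arms of miR-92b and miR-25 were the most abundant of the family, and the Mir17hg arms were near the bottom. miR-92b-3p averaged 1855 ± 1380 normalized counts (SD, n = 8), miR-25-3p 607 ± 153, miR-106b-3p 142.8 ± 51.7 and miR-93-5p 98.0 ± 63.3. miR-92b-5p averaged 56.5 ± 52.8, miR-20a-5p 46.7 ± 33.8, miR-17-5p 21.5 ± 14.1, miR-92a-3p 20.4 ± 7.56 and miR-106b-5p 6.56 ± 5.18. Of the 8 steps between neighbours in this order, 4 were larger than the spread over WT libraries in an exact sign-flip permutation test of log2 values, adjusted over the 8 steps. Those were miR-92b-3p over miR-25-3p, miR-25-3p over miR-106b-3p and miR-92a-3p over miR-106b-5p, each in 8 of 8 libraries (adjusted p = 0.0208 each), and miR-20a-5p over miR-17-5p in 7 of 8 (adjusted p = 0.0469). The positions of miR-106b-3p, miR-93-5p, miR-92b-5p and miR-20a-5p among themselves, and of miR-17-5p against miR-92a-3p, did not pass (adjusted p from 0.262 to 0.648, exact sign-flip permutation). The order was taken from the means of the same WT libraries, so these tests are not independent support for it. With 8 libraries, an unadjusted p of 0.0078 is the lowest that the sign-flip test can give. Levels of different miRNAs also carry the ligation preferences of a small RNA library, so the order describes these libraries.

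**Figure D1:**
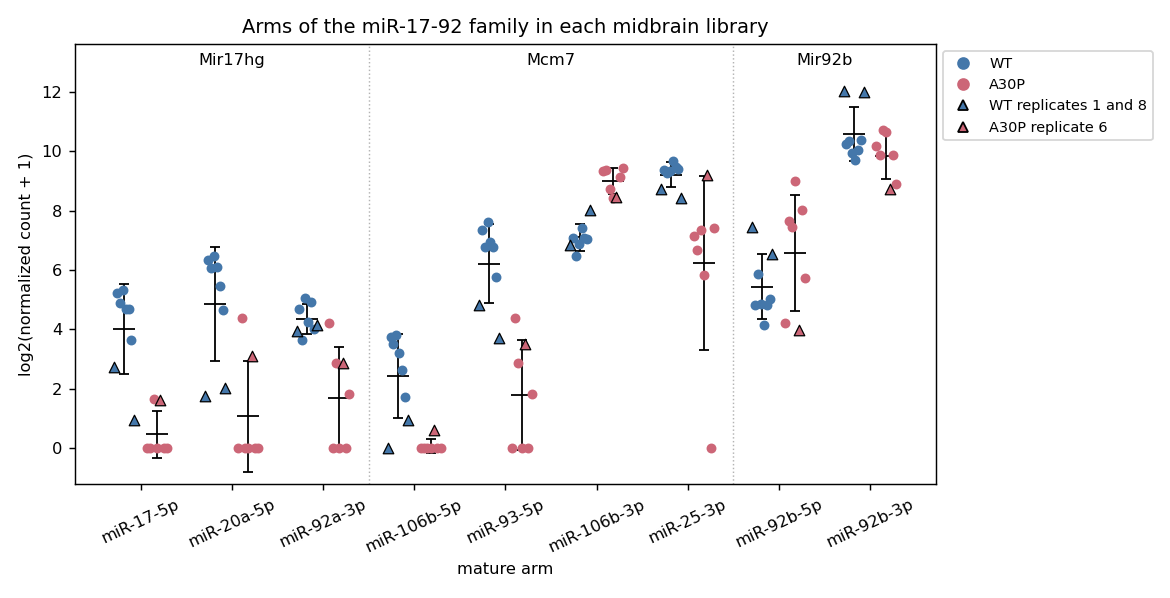
log2(normalized count + 1) of the 9 arms (vertical axis), grouped by locus along the horizontal axis, in 8 WT (blue) and 7 A30P (red) libraries, with mean and SD as bars and triangles for the 2 shallowest WT libraries and the deepest A30P library. miR-106b-3p is the arm whose A30P values, 339 to 692 normalized counts, all lie above the WT values, 87.6 to 258.

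Between genotypes, 6 of the 9 arms were lower in A30P, 1 was higher and 2 did not pass by limma on log2(value + 1) at adjusted p 0.05. In the same test 79.3% of all 396 miRNAs were called, 71.0% lower and 8.33% higher, and the median log2 fold change was -2.65 over the 9 arms and -2.57 over all miRNAs. The number of falls in the family was therefore near that of the table as a whole. The rise of miR-106b-3p and the split between arms of the same transcript stood beside that background. Fewer cells expressing a miRNA and less of it per cell cannot be told apart in tissue RNA.

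miR-106b-3p, the arm opposite the 5p arm that carries the shared seed, rose in A30P. It was at 87.6, 132 and 258 normalized counts in WT (lowest, median and highest of 8) and at 339, 564 and 692 in A30P (7 libraries). The 2 groups did not overlap, with A30P on top, as held for 4.04% of all miRNAs, while 23.7% had A30P wholly below WT, none of the 9 arms among them. The log2 fold change was 1.88 (SE 0.46, limma adjusted p = 0.0011) and the ratio of means 3.68. All 7 A30P libraries had reads of it, from 6 in replicate 4 to 2028 in replicate 6. In the 3 A30P libraries over 100000 reads it was seen 197, 2028 and 269 times (replicates 3, 6 and 8), where the WT mean level would give 67.0, 820 and 55.5 reads. Against the median of all miRNAs the arm stood 4.46 higher on the log2 scale with the deposited scaling. When libraries were scaled by their summed reads, which moves the median of all miRNAs by -0.35, it stood 4.12 higher, and with TMM scaling, which moves it by 0.74, 4.84 higher.

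In the limma fit, which called 71.0% of all miRNAs lower, all 4 arms with the seed AAAGUGC fell. Against the median of all miRNAs with the deposited scaling, miR-93-5p stood at -1.84, miR-20a-5p at -1.21 and miR-17-5p at -0.98 (log2). miR-106b-5p stood at 0.21, so it fell less than that median. These 4 arms, of Mir17hg as well as of the Mcm7 cluster, share many targets. miR-93-5p, the most abundant of them, was at 12.2, 107 and 194 normalized counts in WT (lowest, median, highest) and at 0, 2.57 and 20.1 in A30P. The groups overlapped through WT replicate 8 at 12.2 and A30P replicate 2 at 20.1, the latter from 1 read. Its log2 fold change was -4.41 (SE 0.83, limma adjusted p = 0.00012). edgeR with TMM scaling, run on the recovered reads, gave -2.36 (adjusted p = 0.0020). In that edgeR fit 55.0% of 318 tested miRNAs were called, 35.5% lower and 19.5% higher, and of the 8 arms tested 3 were lower and 2 higher.

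miR-17-5p, the founding member of the family, was at 0.940, 24.9 and 39.4 normalized counts in WT and at 0, 0 and 2.13 in A30P. Only A30P replicates 3 and 6 held reads of it, 1 and 12. The log2 fold change was -3.55 (SE 0.63, limma adjusted p = 6.6e-05), while edgeR with TMM gave -2.34 (adjusted p = 0.0082). miR-20a-5p, its close relative on the same transcript, was at 2.42, 54.4 and 87.8 in WT and at 0, 0 and 20.1 in A30P, with reads in 2 of 7 A30P libraries. Its log2 fold change was -3.79 (SE 0.90, limma adjusted p = 0.00095), while edgeR with TMM gave -2.03 (adjusted p = 0.0258). It did not pass in the authors' deposited table (-1.05, adjusted p = 0.293) or in edgeR with TMM scaling without the 4 shallow A30P libraries (-2.44, adjusted p = 0.0650).

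miR-106b-5p, the rarest arm, was at 0, 6.73 and 13.0 normalized counts in WT and had 3 reads in all of A30P, each of them in replicate 6. Its log2 fold change was -2.36 (SE 0.51, limma adjusted p = 0.00041), a value that depends on the pseudocount of 1, and it was -4.72 with a pseudocount of 0.1 and -0.65 with 10. It did not pass in DESeq2 run on the recovered reads (-1.66, adjusted p = 0.209) or, separately, in the fit of the authors' deposited table (-1.72, adjusted p = 0.124). Nor did it pass in edgeR with TMM without the 4 shallow A30P libraries (-2.92, adjusted p = 0.0595).

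Depth limited what the 4 shallow A30P libraries could show for this seed group. At the WT mean levels those libraries together would have held 3.10 reads of miR-17-5p, 6.73 of miR-20a-5p, 14.1 of miR-93-5p and 0.944 of miR-106b-5p, and they held 0, 1, 1 and 0. More reads were due in the deeper A30P libraries. In replicate 6 miR-93-5p was seen 60 times where the WT mean level would give 563 reads, miR-20a-5p 44 times where it would give 268 and miR-17-5p 12 times where it would give 124. In replicates 3 and 8 miR-93-5p was seen 3 times and 1 time where 46.0 and 38.1 reads would be given. The fall was also seen without the 4 shallow libraries, with a log2 fold change of -3.47 for miR-93-5p, -2.93 for miR-17-5p and -3.82 for miR-20a-5p (limma adjusted p = 0.0026, 0.0113 and 0.0104), where 60.1% of all miRNAs were called, 52.3% lower and 7.83% higher.

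WT replicates 1 and 8 were the lowest WT libraries in these arms and came near A30P replicate 6. miR-20a-5p was at 2.42 and 3.13 normalized counts in WT replicates 1 and 8, while the other 6 WT libraries held 24.0 to 87.8 and A30P replicate 6 held 7.66. miR-17-5p was at 5.65 and 0.940 in them, against 11.4 to 39.4 in the others and 2.09 in A30P replicate 6. Without both libraries the log2 fold changes were larger, at -4.28 for miR-17-5p, -4.77 for miR-20a-5p and -5.06 for miR-93-5p (limma adjusted p = 7.0e-07, 4.3e-05 and 4.2e-05).

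**Figure D2:**
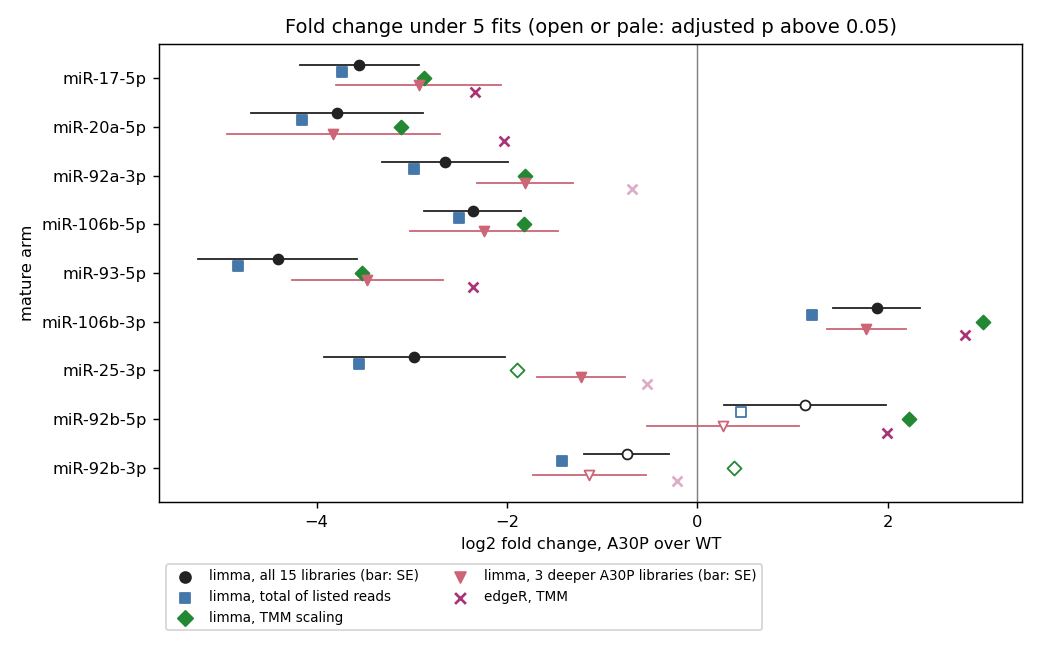
log2 fold change of A30P over WT (horizontal axis) for each arm (vertical axis) under 5 fits, with SE bars for 2 limma fits and open or pale symbols where adjusted p was above 0.05. miR-106b-3p lies between 1.20 and 3.00 in all 5, while miR-25-3p runs from -3.55 to -0.53 and miR-92b-3p crosses 0. miR-106b-5p has no edgeR value because its counts were filtered out.

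In the seed group AUUGCAC, of miR-25 and both miR-92 families, 2 of the 3 arms fell in the limma fit. That fit called 71.0% of all miRNAs lower. Against the median of all miRNAs with the deposited scaling, miR-25-3p stood at -0.40, miR-92a-3p at -0.08 and miR-92b-3p at 1.83 (log2). miR-25-3p was at 341, 654 and 805 normalized counts in WT and at 0, 140 and 582 in A30P. A30P replicate 6 lay inside the WT range at 582, from 3341 reads, while the other 6 A30P libraries lay between 0 and 167, below every WT library. The log2 fold change was -2.97 (SE 0.95, limma adjusted p = 0.0081), and -1.94 (adjusted p = 0.0021) without replicate 7, which held no read of it. Without the 4 shallow A30P libraries it was -1.22 in limma (adjusted p = 0.0344) and -0.08 in edgeR with TMM, which did not pass (adjusted p = 0.888). At the WT mean level the 4 shallow A30P libraries would have held 87.4 reads of it and they held 14. The fall did not pass with TMM scaling in limma (-1.90, adjusted p = 0.102) or in edgeR (-0.53, adjusted p = 0.380), nor in the authors' deposited table, which lists it at -0.11 (adjusted p = 0.846) on the log2 scale.

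miR-92a-3p, the last arm of the miR-17-92 transcript, was at 11.5, 17.5 and 32.3 normalized counts in WT and at 0, 2.57 and 17.5 in A30P. Of the 4 A30P libraries with reads, replicate 6 held 36 and the others 1 to 3, and the groups overlapped through replicate 1, where 17.5 normalized counts rest on 1 read. The log2 fold change was -2.65 (SE 0.66, limma adjusted p = 0.0014), and in edgeR with TMM, at -0.69, it did not pass (adjusted p = 0.284).

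miR-92b-3p, the most abundant arm, did not pass. It was at 822, 1245 and 4114 normalized counts in WT and at 424, 924 and 1654 in A30P, with overlap throughout (log2 fold change -0.74, SE 0.45, limma adjusted p = 0.132). WT replicates 1 and 8 were the high libraries, at 4114 and 4034, against 822 to 1337 in the other 6. The direction depended on the scaling. It was lower when libraries were scaled by their summed reads (-1.43, adjusted p = 0.0207), higher by 0.11 when miR-148a-3p and miR-151-3p were left out of that total (adjusted p = 0.855), higher by 0.38 with TMM scaling in limma (adjusted p = 0.570), and higher by 1.26 in edgeR with TMM scaling without WT replicates 1 and 8 (adjusted p = 0.0145).

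miR-92b-5p, the arm opposite it, was at 16.8, 29.8 and 173 normalized counts in WT and at 14.6, 173 and 508 in A30P. The mean was 174 ± 175 (SD, n = 7) in A30P against 56.5 ± 52.8 in WT, and the log2 fold change of 1.13 (SE 0.85) did not pass by limma (adjusted p = 0.224). It passed upward in edgeR with TMM scaling (1.99, adjusted p = 0.0284), with TMM scaling in limma (2.22, adjusted p = 0.0458) and in DESeq2 (1.47, adjusted p = 0.0465). Without the 4 shallow A30P libraries, which held 25 reads of it in all, it did not pass in limma (0.27, adjusted p = 0.786) or in edgeR with TMM (1.28, adjusted p = 0.268). The authors' deposited table lists the opposite direction for this arm, a log2 fold change of -1.73 with an adjusted p of 0.0080, and it lists miR-92b-3p at -2.41 with an adjusted p of 2.4e-05. By the adjusted p of the authors' deposited table, 43.9% of miRNAs were called, with 34.1% lower and 9.85% higher.

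The only other listed miRNA with a seed of the family was miR-32-5p, which shares AUUGCAC. It was at 11.2 ± 11.4 normalized counts in WT (SD, n = 8) and at 3.14 ± 7.51 in A30P (SD, n = 7), with reads in 2 of 7 A30P libraries (log2 fold change -2.05, SE 0.75, limma adjusted p = 0.0182). No arm of the X-linked paralogs miR-106a, miR-18b, miR-20b and miR-363 was among the miRNAs analysed here.

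The 3 arms counted here under Mir17hg, with miR-92a-3p among them although Mir92-2 also encodes it, summed to 21.0, 102 and 159 normalized counts in WT (lowest, median, highest) and to 0, 8.52 and 20.1 in A30P. Of the 7 A30P sums, 5 rest on at most 1 read, the 20.1 of replicate 2 included, and 3 reads in replicate 4 would stand for 169 normalized counts, so the sums of 0 cannot place those libraries below WT. Without miR-92a-3p, miR-17-5p and miR-20a-5p summed to 4.08, 80.2 and 127 in WT and to 0, 0 and 20.1 in A30P, and the groups overlapped through WT replicates 1 and 8. The 4 Mcm7 arms summed to 559, 906 and 1103 in WT and to 395, 784 and 946 in A30P, and these sums overlapped. The makeup of the Mcm7 sum differed, since miR-106b-3p gave 10.8% to 42.1% of its reads in a WT library and 37.3% to 100% in an A30P library. The Mcm7 arms had 6.09 to 29.1 reads for each Mir17hg read in WT. In A30P replicates 3, 6 and 8 they had 69.0, 59.0 and 335, from 4, 92 and 1 Mir17hg reads. Sums over arms chosen with results known are given without a test.

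Ratios of 2 arms within a library do not depend on the scaling between libraries. None of the 11 pairs first listed could be tested, since 9 had both arms listed and none of these had reads of each arm in at least 5 A30P libraries. The 3 pairs tested were chosen after the values were seen, as those that share a cluster, a seed or a hairpin and meet that minimum, and 0.5 reads were added to each arm. miR-106b-3p over miR-25-3p, within the Mcm7 transcript, averaged -2.11 ± 0.74 on the log2 scale in WT (SD, n = 8) and 2.01 ± 1.56 in A30P (SD, n = 7). The difference was 4.12 (exact permutation test over 6435 splits, two-sided, p = 0.000311, adjusted over 3 pairs 0.000932). In reads, there were 0.144 to 0.756 of miR-106b-3p for each of miR-25-3p in WT, and 0.607 in A30P replicate 6 against 2.59 to 6.60 in the other 5 A30P libraries with reads of both. Replicate 6 was thus inside the WT range, near WT replicate 8. A30P replicate 7 held 11 reads of miR-106b-3p and 0 of miR-25-3p, so its ratio rests on the added 0.5 reads. A30P replicate 4 held 6 and 1. In A30P replicates 3, 6 and 8, the deeper libraries, the log2 ratios were 1.37, -0.72 and 2.04.

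miR-92b-5p over miR-92b-3p, the balance of arms in that hairpin, averaged -5.18 ± 0.42 in WT and -3.18 ± 1.51 in A30P, a difference of 2.00 (exact permutation test, p = 0.0050, adjusted p = 0.0075). In 5 of 7 A30P libraries the ratio exceeded that of all WT libraries, and in replicates 1 and 6 it did not. Without the 4 shallow A30P libraries the difference was 1.41 (adjusted p = 0.0273, exact permutation test). For miR-92b-3p over miR-25-3p, which share a seed, the difference of 1.47 did not pass (1.38 ± 1.31 in WT, 2.84 ± 1.85 in A30P, exact permutation test, p = 0.0979). It was 2.01 without A30P replicate 6 (adjusted p = 0.0143) and 2.15 without WT replicates 1 and 8 (adjusted p = 0.0192), but 0.09 without the 4 shallow A30P libraries (adjusted p = 0.945), by the same exact permutation test.

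**Figure D3:**
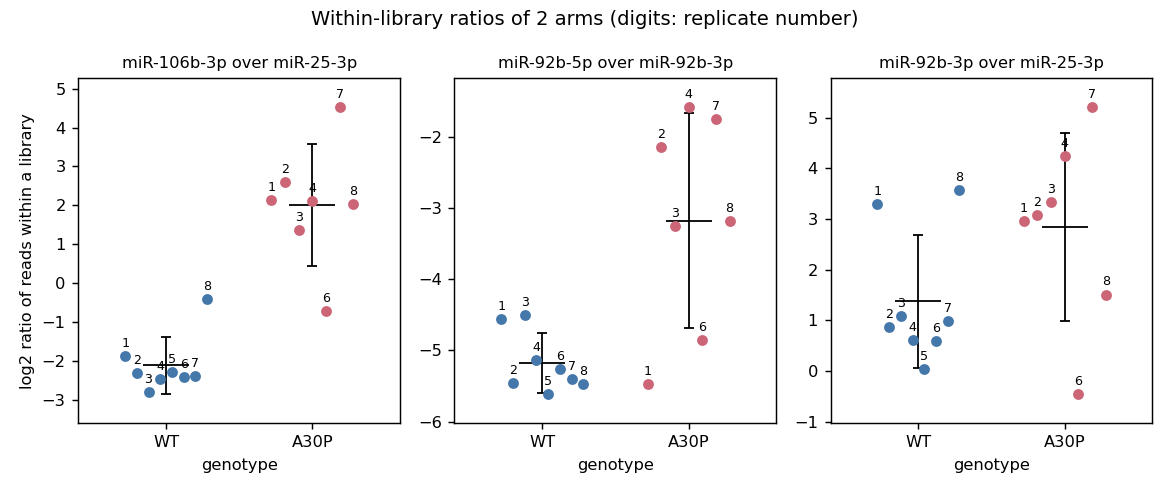
log2 ratio of reads of 2 arms within each library (vertical axis) in WT and A30P (horizontal axis), with replicate numbers at the points and mean and SD as bars. For miR-106b-3p over miR-25-3p, 6 of 7 A30P libraries lie above all WT libraries, and A30P replicate 6 lies beside WT replicate 8.

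The arm balance of the miR-106b hairpin could be read only in part, since 1 of 7 A30P libraries held both arms. There were 8.53 to 56.6 reads of miR-106b-3p for each of miR-106b-5p in WT replicates 2 to 7 and 274 in WT replicate 8, where the 5p arm had 3 reads. WT replicate 1 held reads of the 3p arm and 0 of the 5p arm. A30P replicate 6 held 2028 and 3, a ratio of 676, and A30P replicates 3 and 8 held 197 and 269 reads of the 3p arm and 0 of the 5p arm. For miR-106b-3p over miR-93-5p, from neighbouring hairpins, the ratio was 0.606 to 21.1 in WT and 33.8 in A30P replicate 6, with 65.7 in replicate 3 and 269 in replicate 8 from 3 reads and 1 read of miR-93-5p.

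Base composition moved with these differences. G and C made up 39.1% to 52.2% of the 4 arms with the seed AAAGUGC, 50.0% of miR-25-3p, 57.1% of miR-92a-3p, 62.5% of miR-92b-5p and 63.6% of both miR-92b-3p and miR-106b-3p. The 3 arms with the most G and C were the 3 with the highest log2 fold changes. Over the 9 arms the correlation of G and C with the log2 fold change was 0.76 (Pearson) and 0.69 (Spearman), and over the 347 listed miRNAs with a RefSeq sequence it was 0.13 and 0.14. The difference between the 2 WT libraries with the fewest reads (replicates 1 and 8) and the other 6 followed base composition more closely, at 0.92 and 0.91 over the 9 arms and 0.64 and 0.64 over the 347 miRNAs. These correlations are across miRNAs measured in the same libraries, which are not independent, and the part of base composition in the genotype difference was not tested.

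**Figure D4:**
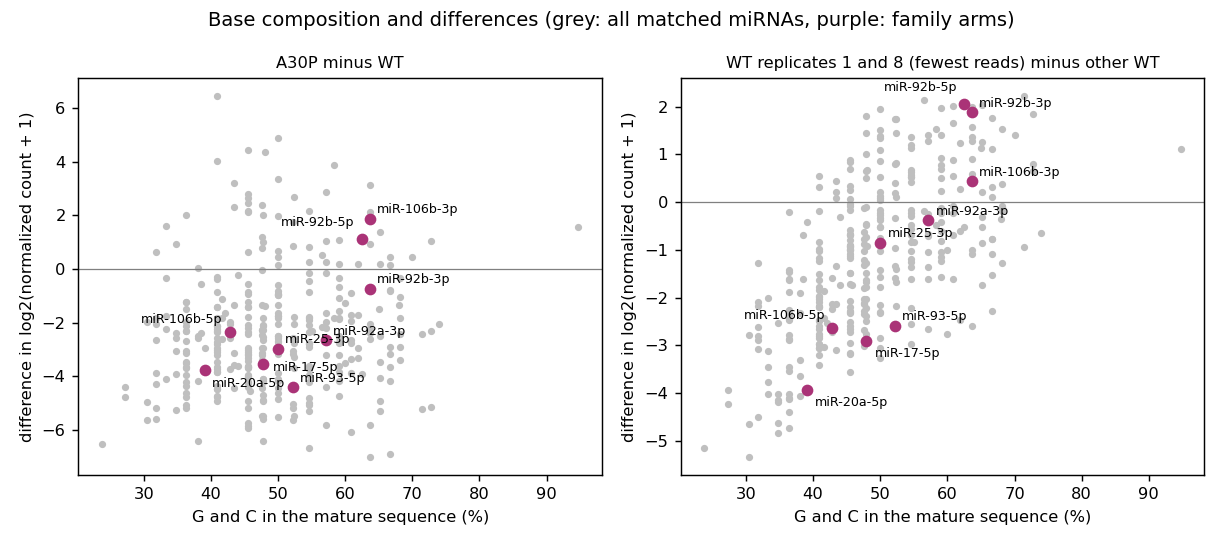
Percentage of G and C in the mature sequence (horizontal axis) against the difference in log2(normalized count + 1) (vertical axis), between genotypes on the left and between WT replicates 1 and 8 and the other WT libraries on the right, for 347 miRNAs (grey) and the 9 arms (purple). On the right the arms run from -3.94 for miR-20a-5p to 2.06 for miR-92b-5p, with Pearson correlation 0.92 over the arms, and on the left the cloud of all miRNAs has a correlation of 0.13.

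The miRNAs with the profile most like that of miR-17-5p, out of 161 others with a mean of at least 100 normalized counts, were the endothelial miR-126a-3p, miR-26a-5p and the neural miR-9-5p. Their log2 profiles over the 15 libraries, each centred on its mean, differed from that of miR-17-5p by a root mean square of 0.80, 0.88 and 0.89, against a median of 1.94 over the 161. For miR-93-5p they were miR-16-5p, miR-384-5p and miR-379-3p (0.72, 0.81 and 0.88, median 1.99). In A30P, miR-17-5p had reads in 2 libraries and miR-93-5p in 4, and both were at 0 in the rest. Closeness of profile in those libraries cannot show that the levels moved together.

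Markers of the tissue and of other cells also differed between the genotypes. All 3 neuron markers were read in both groups and all fell by limma, which called 71.0% of all miRNAs lower. Their summed level was 36266 to 172503 normalized counts in WT and 5305 to 50458 in A30P. Of 8 names on the blood cell list 2 were listed, and miR-451a of red cells was higher (log2 fold change 2.03, limma adjusted p = 0.0327) while miR-144-5p was lower (-1.99, adjusted p = 0.0013). miR-144-5p averaged only 4.75 normalized counts in WT and had reads in 1 of 7 A30P libraries, so depth limits what its fall can show. The summed blood level was 19.4 to 128 in WT and 26.6 to 1691 in A30P. Of the vessel markers, miR-143-3p was higher and miR-126a-3p lower (summed 2880 to 15823 in WT and 4628 to 18830 in A30P). The vessel marker miR-145-5p, listed as miR-145a-5p, was also lower (-3.51, limma adjusted p = 0.0018) and is not in those sums. It had reads in 4 of 7 A30P libraries. Of 2 listed oligodendrocyte markers, miR-338-3p was lower and miR-219a-2-3p did not pass (2952 to 7943 and 1298 to 5282). Their part in the differences of the family was not tested.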

How the data were processed

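The authors deposited a single table of 396 miRNAs. Per the labels' protocols, Trizol was used for RNA and a TruSeq kit for the small RNA libraries, though column names start with NEB, per the file headers. Per the submitters' processing notes, the build was mm9 and DESeq was used. No source used here names the aligner, counter or annotation. The columns named CT were read as WT and matched by number.

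The per-library signal values deposited by the authors are read counts divided by a size factor. A read was taken as the largest step of which all values of a library are whole multiples (100% within 1e-05). That step was the smallest value in 9 of 15 libraries and a fraction of it, down to 1 in 31, in the other 6. The read counts and depths are thus inferred, and are the lowest the values allow. The authors' deposited group means, on a scale not stated, equal the mean reads for 0 of 396 miRNAs. The log2 fold changes and p-values deposited by the authors are credited to that table wherever printed. The group means, the fitted score (test statistic) and other columns deposited by the authors were not used.

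The main test was limma 3.58.1 (trend, robust, R 4.3.3) on log2(value + 1) over all miRNAs whose mean reached 1 in a group, with Benjamini-Hochberg adjustment. The added 1 shrinks fold changes of rare miRNAs, yet the limma falls were not always smaller than those of a count fit. In edgeR with the deposited size factors, miR-25-3p was at -1.65, miR-92a-3p at -1.87 and miR-17-5p at -3.74 on the log2 scale. The limma values were -2.97, -2.65 and -3.55. The median over all miRNAs tested was -2.00 in that edgeR fit and -2.57 in limma. edgeR 4.0.16 (quasi-likelihood) called 175 of 318 and DESeq2 1.42.0 was also run, both on recovered reads. The edgeR fits that leave out libraries were chosen after seeing the data. edgeR and limma were also run on simulated data, with a fixed spread and as many rises as falls, unlike the calls here. The outcome is not given, and no result here rests on it. Ratios were compared with exact permutation tests (Python 3.11.15, scipy 1.17.1). The arms, lists and tests were chosen with earlier results of these data known. The named miRNAs are all arms of the family, those sharing a seed or nearest in profile, and the listed cell markers. No 2 libraries of a group agreed within sampling noise (lowest chi-square per degree of freedom 11.3 over 49 pairs).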

Additional observations from a re-analysis of the deposited data

Results flagged for a closer look

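Within groups, 6 values stood apart from the rest of their group by more than the gap that Dixon's test allows, among 18 groups examined. Chance gives about 1 in 20 for normally distributed values. The test was run on normalized counts without a log, and some groups were mostly at 0. The 6 flags therefore cannot be weighed against that rate. In WT, replicate 1 was highest in miR-92b-5p at 173 normalized counts (next 90.9), and replicate 8 was highest in miR-106b-3p at 258 (next 167). In A30P, replicate 6 was highest in miR-25-3p at 582 normalized counts (next 167), and it was the single library with reads of miR-106b-5p, at 0.522. A30P replicate 1 was highest in miR-92a-3p at 17.5 (next 6.39) and A30P replicate 2 in miR-20a-5p at 20.1 (next 7.66), each from 1 read.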

How the results depend on the processing

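By limma 314 of 396 miRNAs were called, 33 higher and 281 lower, and 299 to 325 were called when a library was left out. The count was 175 in edgeR with TMM (62 higher, 113 lower), 191 without its filter (66 and 125), 142 without the A30P libraries under 100000 reads (54 and 88), 95 higher and 137 lower without WT replicates 1 and 8, and 174 in the authors' deposited table (135 lower). The arms called higher were 2 with TMM scaling in limma, in edgeR with TMM with or without a filter and in DESeq2, and 3 in edgeR without WT replicates 1 and 8. The arms called lower were 3 in edgeR with TMM and 2 there without the shallow A30P libraries. miR-106b-3p, miR-17-5p and miR-93-5p were called in the same direction in all 34 fits run, at 1.20 to 3.45, -5.89 to -1.41 and -5.92 to -2.33 on the log2 scale. These fits are not independent. The limma fits without a filter and with median-ratio scaling computed again gave the same values as the main fit. The log2 fold change of miR-92b-3p turned to 0.11 with the total less miR-148a-3p and miR-151-3p, 0.38 with TMM scaling and 1.26 in edgeR without WT replicates 1 and 8. That of miR-92b-5p was -1.73 in the authors' deposited table. The cause was not tested. The ratio of miR-92b-3p over miR-25-3p passed at 2.15 without WT replicates 1 and 8 and ranged from 1.07 to 2.01 when a library was left out. With the replicate number as a block, sign-flip permutation gave 1.94 for miR-92b-5p over miR-92b-3p, which no longer passed (adjusted p = 0.0703). Leaving out a library gave 1.73 to 2.38 for that ratio and 3.70 to 4.57 for miR-106b-3p over miR-25-3p. The replicate block in limma called 296 miRNAs and the same 7 arms, but the numbers do not pair the samples, since 2 of 7 pairs deviated together (correlation over 0.1). The tests of the first listed pairs were not run for lack of reads. Depth limits the rare arms most, since in the shallowest A30P library 3 reads stand for 169 normalized counts.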

Other observations

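The authors' deposited log2 fold changes do not follow the deposited values in every miRNA. For 92 of the 396 miRNAs the sign in the authors' deposited table was opposite to that of the ratio of group means of the deposited normalized counts. Among the 9 arms this was the case for 1, miR-92b-5p, listed at -1.73 against a log2 ratio of means of 1.63. For miR-25-3p the deposited table lists -0.11 and the log2 ratio of means was -1.81. The sources used here do not describe how those fold changes were fitted.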
